A study of Mus musculus with 6 samples.

Results

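Vmn2r53, Vmn2r65, Vmn2r88 and Vmn2r116 are vomeronasal type 2 receptors (V2Rs) for which a ligand or a behavioral role has been reported. These 4 genes were taken by name for these reported roles, out of 121 V2R genes and 35450 genes quantified in the vomeronasal organ (VNO). The study compared VNOs of wild-type mice (Cnpy1+/+) with those of Cnpy1 knockout mice (Cnpy1-/-) at postnatal day 60, with 3 mice per genotype. Each group held 2 males and 1 female, and both organs of a mouse went into 1 poly(A)-selected, strand-specific RNA library. The labels give no construct or cell type for the knockout allele.

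V2Rs are class C G protein-coupled receptors of the basal sensory neurons of the VNO, which use the G protein subunit encoded by Gnao1 and the cation channel encoded by Trpc2. A basal neuron typically expresses 1 or few of the many specific V2Rs together with a broadly expressed family C receptor, Vmn2r1 to Vmn2r7, and in part of the cells with H2-Mv major histocompatibility molecules. The protein encoded by Cnpy1 belongs to the Canopy proteins, which reside in the endoplasmic reticulum. Among the 4 receptors, Vmn2r53 has been linked to aggression between males. Vmn2r65 and Vmn2r88 have been linked to the detection of pups and to infant-directed aggression, with the submandibular gland protein Smgc and hemoglobin as reported ligands. Vmn2r116 is the receptor of ESP1, a peptide of male tear fluid that promotes female sexual receptivity.

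The libraries held 60969508 to 71670766 estimated reads. CPM values are read counts scaled to a common library total. Cnpy1 itself averaged 303 ± 22.5 CPM in the wild-type mice against 73.7 ± 5.67 CPM in the knockouts (SD, n = 3 each), so the libraries match their labelled genotype while reads of the gene remain. Of the 16679 genes tested, 114 (0.683%) were called lower and 13 (0.0779%) higher in the knockout. A gene is called here when its adjusted p from edgeR's quasi-likelihood test is under 0.05. The labelled tissue held its defining markers in all 6 libraries: Gnai2, Meis2 and Nrp2 of apical neurons summed to 1022 to 1090 CPM in the wild-type and 1140 to 1198 CPM in the knockout libraries. Gnao1, Tfap2e, Bcl11b and Robo2 of basal neurons summed to 457 to 477 CPM and to 356 to 386 CPM.

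Receptors of this family resemble each other, so the reads of each gene are only as certain as its sequence is distinct. The uniqueness of a gene was taken as the share of the 31-base words (31-mers) of its annotated transcripts that occur in no other quantified gene. It was 98.8% for Vmn2r65, 75.6% for Vmn2r53, 75.5% for Vmn2r116 and 69.3% for Vmn2r88. Within the coding part alone, it was 99.3% for Vmn2r65, 57.0% for Vmn2r116, 55.4% for Vmn2r53 and 49.3% for Vmn2r88. Nearest coding sequences are those aligned over at least 80% of the receptor's coding bases. The coding sequences of the 4 receptors were 60.2% to 69.2% identical to each other in pairwise alignment. Vmn2r53 had Vmn2r55 as its nearest coding sequence (94.3% identity), and Vmn2r65 had only Vmn2r76 (74.0%). Vmn2r88 was nearest to Vmn2r-ps159 (95.1%), and Vmn2r116 to Vmn2r111 and Vmn2r117 (93.5% each).

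The following stretches show how each receptor differs from a relative whose values matter below. Each is the run of 90 coding bases within 1 exon that held the most differences in the alignment of the pair. It therefore overstates how far the aligned coding sequences differ as a whole, and coding bases left unaligned are not compared. The relatives were picked after values had been seen. Sequences are on the strand of the gene, from GENCODE M21 transcripts (GRCm38), and capitals mark the bases that differ within the pair. Vmn2r53 (chr7:12581477-12581566, minus strand, coding exon 6) and its neighbour Vmn2r54 (chr7:12615240-12615329, minus strand) differ at 24 of the 90 bases, in the exon that encodes the C-terminal part.
Vmn2r53: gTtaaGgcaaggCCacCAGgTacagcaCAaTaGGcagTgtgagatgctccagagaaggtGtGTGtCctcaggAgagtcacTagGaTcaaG
Vmn2r54: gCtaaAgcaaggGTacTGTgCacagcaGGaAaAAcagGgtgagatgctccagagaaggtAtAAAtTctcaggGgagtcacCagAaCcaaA

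Vmn2r65 (chr7:84947532-84947621, minus strand, coding exon 2) and Vmn2r76 (chr7:86231151-86231240, minus strand) differ at 33 of 90 bases, and differences are spread over most of the stretch.
Vmn2r65: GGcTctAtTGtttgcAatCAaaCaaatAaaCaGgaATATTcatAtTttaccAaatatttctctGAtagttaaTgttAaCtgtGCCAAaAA
Vmn2r76: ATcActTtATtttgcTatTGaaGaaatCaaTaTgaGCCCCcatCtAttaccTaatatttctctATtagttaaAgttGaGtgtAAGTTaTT

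Vmn2r88 (chr14:51414134-51414223, plus strand, coding exon 3) and its neighbour Vmn2r89 (chr14:51456098-51456187, plus strand) differ at 14 of 90 bases, and runs without a difference are long. This pair aligned over only 59.2% of the coding bases of Vmn2r88, and the rest was not compared.
Vmn2r88: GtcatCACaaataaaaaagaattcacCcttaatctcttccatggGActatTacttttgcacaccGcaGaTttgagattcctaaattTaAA
Vmn2r89: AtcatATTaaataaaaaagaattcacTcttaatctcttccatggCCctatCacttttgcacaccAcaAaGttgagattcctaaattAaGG

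Vmn2r116 (chr17:23386052-23386141, plus strand, coding exon 2) and its neighbour Vmn2r117 (chr17:23478287-23478376, minus strand) differ at 18 of 90 bases.
Vmn2r116: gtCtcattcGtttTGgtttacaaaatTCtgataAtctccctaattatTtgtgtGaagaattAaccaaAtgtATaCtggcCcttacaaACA
Vmn2r117: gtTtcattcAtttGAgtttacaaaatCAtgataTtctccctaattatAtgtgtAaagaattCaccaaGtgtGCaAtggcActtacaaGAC

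All 4 receptors were lower in the knockout, Vmn2r65 and Vmn2r53 by more than Vmn2r88 and Vmn2r116. Mean CPM were 9.56-fold lower for Vmn2r65 and 4.66-fold lower for Vmn2r53, whereas the ratios for Vmn2r88 and Vmn2r116 were 1.86 and 1.79. Each of the 4 was called lower, against 0.683% of all genes tested and 51.3% of the 119 V2R genes tested. In each, all 3 knockout libraries lay below all 3 wild-type libraries, which held for 8.95% of all genes tested. In whole-organ RNA, fewer neurons expressing a receptor and less receptor RNA per neuron cannot be told apart.

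**Figure D1:**
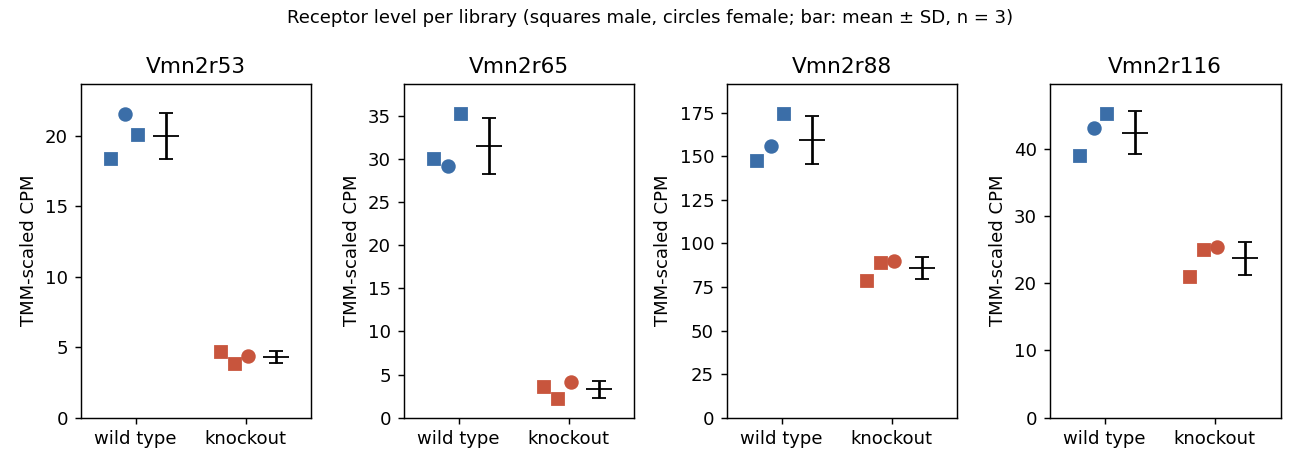
TMM-scaled CPM of the 4 receptors in each library (y axis from 0; blue wild type, red knockout; squares males, circles females; black bar, mean ± SD over 3 mice). The knockout libraries lie below the wild-type libraries in every panel, and the ratio of the means is largest for Vmn2r65 (29.2 to 35.2 against 2.19 to 4.14 CPM) and smallest for Vmn2r116 (38.9 to 45.1 against 20.9 to 25.3 CPM).

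Vmn2r53 (ENSMUSG00000096002.2, chromosome 7, 12562851 to 12608788, minus strand, GRCm38), the receptor linked to aggression between males, had 18.3, 21.6 and 20.1 CPM in the wild-type libraries against 4.68, 3.84 and 4.36 CPM in the knockout libraries. The lowest wild-type library was a male and the highest was the female, and the groups were far apart. The means were 19.99 ± 1.62 and 4.29 ± 0.425 CPM (SD, n = 3 each), and the log2 fold change was -2.22 with an SE of 0.10 (edgeR adjusted p = 3.15e-05). The change was larger per length: in TPM, a unit that divides reads by effective transcript length, the level was 2.50 ± 0.507 in wild type and 0.244 ± 0.0419 in the knockout (SD, n = 3 each). The knockout thus kept 9.78% of the wild-type level in TPM and 21.5% in CPM. With the effective lengths as an offset in edgeR the log2 fold change was -3.28. On the log2(TPM + 1) scale, which understates changes of low genes, limma gave -1.48.

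Vmn2r65 (ENSMUSG00000066372.6, chromosome 7, 84935565 to 84964115, minus strand), the pup-cue receptor with Smgc as a reported ligand, had 29.96, 29.2 and 35.2 CPM in the wild-type libraries and only 3.54, 2.19 and 4.14 CPM in the knockouts. Its estimated reads were 1984, 1819 and 2622 in wild type and 212, 128 and 278 in the knockout. The highest knockout library, the female, was still far below the lowest wild-type library. Its log2 fold change, -3.25 with an SE of 0.20 (edgeR adjusted p = 0.000156), was the lowest of the 119 V2R genes tested in this fit. Other V2R genes were lower in some of the alternatives: without knockout replicate 2 Vmn2r62 was lower (-3.07 against -3.03), with effective lengths as an offset Vmn2r53 was slightly lower at -3.28, and on the log2(TPM + 1) scale Vmn2r54 and Vmn2r55 were (-2.30 and -2.27 against -2.07). CPM and TPM gave similar ratios for this receptor, 9.56 and 9.81.

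Vmn2r88 (ENSMUSG00000000606.18, chromosome 14, 51410820 to 51420721, plus strand), the receptor with hemoglobin as a reported ligand, had 147, 156 and 174 CPM in the wild-type mice and 78.5, 88.7 and 90.1 CPM in the knockouts. The groups did not overlap, although the lowest wild-type and the highest knockout library were less than 2-fold apart. With means of 159 ± 13.8 and 85.7 ± 6.34 CPM (SD, n = 3 each), its log2 fold change was -0.89 with an SE of 0.08 (edgeR adjusted p = 0.00172). The gene overlaps 1 other quantified gene on the same strand, Gm7247, and whether the 2 exchange reads in the estimate was not tested.

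Vmn2r116 (ENSMUSG00000090966.2, chromosome 17, 23384604 to 23404422, plus strand), the ESP1 receptor, had 38.9, 43.0 and 45.1 CPM in wild-type mice, compared with 20.9, 24.9 and 25.3 CPM in knockout mice. The groups did not overlap, and the spread within each was small next to the gap. Its means were 42.4 ± 3.17 and 23.7 ± 2.47 CPM (SD, n = 3 each), with a log2 fold change of -0.84 and an SE of 0.09 (edgeR adjusted p = 0.00418). Reads that it may share with Vmn2r117, a relative that changed in the opposite direction, are described with the relatives.

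The order of levels per length was the same in both genotypes. In wild type, Vmn2r88 was highest at 60.7 ± 9.58 TPM, followed by Vmn2r116 at 10.7 ± 1.53, Vmn2r65 at 5.60 ± 0.799 and Vmn2r53 at 2.50 ± 0.507 TPM (SD, n = 3 each). In the knockout the means were 30.6 ± 4.33, 5.61 ± 0.841, 0.570 ± 0.225 and 0.244 ± 0.0419 TPM (SD, n = 3 each). No neighbours in this order overlapped over the 3 libraries of a genotype. By mean CPM the order was not the same: Vmn2r65 was above Vmn2r53 in wild type (31.5 against 19.99) and below it in the knockout (3.29 against 4.29). Among the 121 V2R genes, ranked from the highest mean TPM, Vmn2r65 went from rank 63 in wild type to 105 in the knockout, and Vmn2r53 from 93 to 111. The other two moved less, Vmn2r88 from 6 to 10 and Vmn2r116 from 40 to 43.

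**Figure D2:**
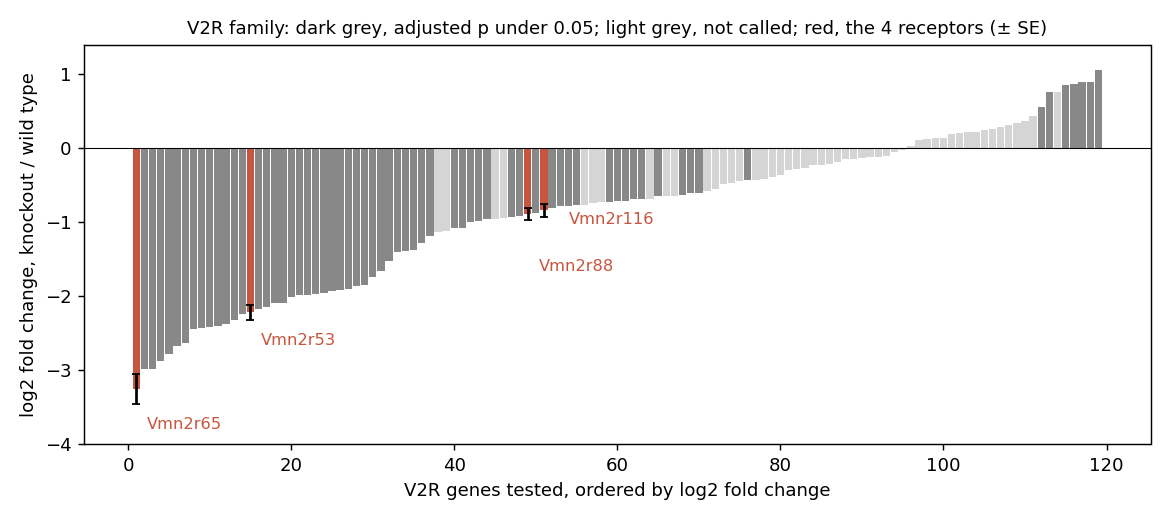
Log2 fold change (knockout over wild type, y axis) of each of the 119 V2R genes tested, ordered from the lowest (x axis, rank); dark grey bars were called, light grey bars were not, and red bars with SE are the 4 receptors. Vmn2r65 is at rank 1 and Vmn2r53 at rank 15, while Vmn2r88 at 49 and Vmn2r116 at 51 lie near the family's median of -0.72.

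Over the V2R family the median log2 fold change was -0.72, against 0.0058 over all genes tested. The changes of Vmn2r88 and Vmn2r116, at ranks 49 and 51 of 119, were near that median. Those of Vmn2r65 and Vmn2r53, at ranks 1 and 15, were far below it. Together the 4 genes held 4.39% to 4.61% of all V2R reads in wild type and 3.00% to 3.26% in the knockout. All V2R reads made up 0.517% to 0.621% of reads in genes in wild type and 0.332% to 0.399% in the knockout.

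Differences between the receptors were examined within each library as the log2 ratio of 2 receptors' CPM, compared between genotypes by a two-sided exact permutation test over the mice, for all 6 pairs. With 3 against 3 mice the smallest p this test can give is 0.1. Vmn2r65 fell further than Vmn2r88 by 2.41 on the log2 scale and further than Vmn2r116 by 2.46. Vmn2r53 fell further than Vmn2r88 by 1.33 and further than Vmn2r116 by 1.38. In these 4 pairs the genotypes did not overlap, and each had the smallest possible p (exact permutation p = 0.1, adjusted p = 0.12 over the 6 pairs).

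Vmn2r65 fell further than Vmn2r53 by 1.08 on the log2 scale by reads, also without overlap (exact permutation p = 0.1, adjusted p = 0.12). By TPM the difference between this pair was 0.017 (exact permutation p = 0.9), so their order depends on the unit. For Vmn2r88 and Vmn2r116 the difference in log2 fold change was -0.052, with a 95% interval of -0.16 to 0.051 from the pooled spread (exact permutation p = 0.2, adjusted p = 0.2). The log2 ratio of Vmn2r88 to Vmn2r116 was 1.92, 1.86 and 1.95 in the wild-type libraries and 1.91, 1.83 and 1.83 in the knockout libraries, and the groups overlapped.

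Some markers of basal and mature neurons were also lower in the knockout, by less than the receptors. Gnao1 averaged 310.3 ± 8.48 CPM in wild-type and 233.7 ± 8.09 CPM in knockout mice (SD, n = 3 each), and it was called lower (log2 fold change -0.41, edgeR adjusted p = 0.0143). Omp, a marker of all mature sensory neurons of the organ, was at 1147 ± 108 and 928 ± 34.8 CPM (SD, n = 3 each) and was not called (log2 fold change -0.31, edgeR adjusted p = 0.203). The mature neuron markers Omp, Stom and Trpc2 summed to 2417 to 2669 CPM and to 1947 to 2044 CPM in the 2 groups, and 1 of the 3, Stom, was called lower, against 0.683% of all genes tested. Of 6 progenitor and immature neuron markers, 1, Top2a, a gene of dividing cells, was called higher, against 0.0779% of all genes tested, and their sums of 100.5 to 119.7 and 116.2 to 136.8 CPM overlapped. Gnao1 was not called when any 1 of the libraries other than knockout replicate 3 was left out.

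The receptors were therefore also set against these genes within each library, with the denominators chosen after values had been seen. Relative to Gnao1, Vmn2r53 stood at 6.01%, 7.06% and 6.28% of the Gnao1 reads in wild type and at 1.95%, 1.71% and 1.84% in the knockout. The mean log2 ratio between genotypes on this scale was -1.81 for Vmn2r53, -2.89 for Vmn2r65, -0.48 for Vmn2r88 and -0.43 for Vmn2r116. Relative to Omp it was -1.92 for Vmn2r53, -0.59 for Vmn2r88 and -0.54 for Vmn2r116, while Vmn2r65 stood at 2.78% ± 0.528 and 0.353% ± 0.0972 of the Omp reads (SD, n = 3 each). All knockout libraries stayed below all wild-type libraries for each receptor on both scales (exact permutation p = 0.1 each).

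Set against V2R reads, less of the fall of Vmn2r88 and Vmn2r116 remained. Relative to the summed family C receptors, the log2 ratios were -1.71 for Vmn2r53, -2.79 for Vmn2r65, -0.38 for Vmn2r88 and -0.33 for Vmn2r116. Relative to all V2R reads, which include those of the receptor itself, they were -1.63, -2.71, -0.30 and -0.25. Vmn2r116 made up 0.729%, 0.776% and 0.758% of V2R reads in wild type and 0.612%, 0.626% and 0.666% in the knockout, so even here the groups did not overlap (exact permutation p = 0.1).

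**Figure D3:**
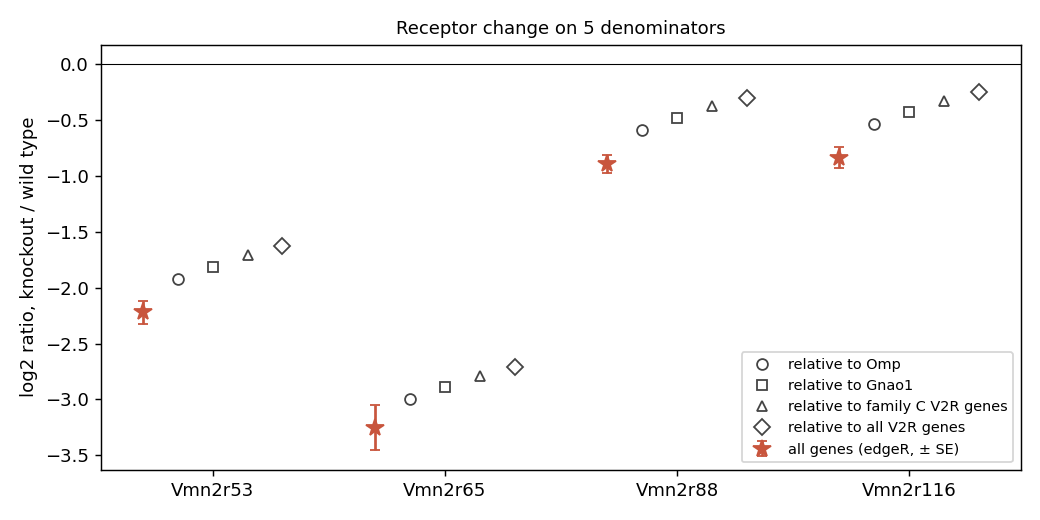
Log2 ratio of knockout to wild type (y axis) for each receptor (x axis) relative to all genes (red star, edgeR ± SE) and relative to the reads of Omp, Gnao1, the family C receptors and all V2R genes (open symbols, difference of group means over 3 mice each). Every symbol lies below 0, from -3.25 to -2.71 for Vmn2r65 and from -0.84 to -0.25 for Vmn2r116.

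The fall was present in both sexes as far as 1 female per genotype can show. In males the log2 ratio of mean CPM was -2.17 for Vmn2r53, -3.51 for Vmn2r65, -0.94 for Vmn2r88 and -0.88 for Vmn2r116. In the females it was -2.31, -2.82, -0.79 and -0.76. The difference was widest for Vmn2r65, with an interaction term of 0.68 (SE 0.34, unadjusted p = 0.0801, edgeR adjusted p = 0.958). This term was 1.07 without knockout replicate 1 and 0.38 without knockout replicate 2. The interaction terms of Vmn2r53, Vmn2r88 and Vmn2r116 were -0.13, 0.15 and 0.11 (edgeR adjusted p = 0.968, 0.966 and 0.970), where 0.024% of all genes were called. With a single female in each group, sex and animal cannot be told apart.

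The annotated transcripts of the receptors were examined next. The shares rest on estimated reads, which the quantifier divides among transcripts with little sequence of their own. Of the 43741 transcripts tested, 0.096% were called lower in the knockout, and 4 of these are among the 21 tested transcripts of the receptors, which have 25 in all: Vmn2r53-202, Vmn2r65-201, Vmn2r65-202 and Vmn2r88-202. Their log2 fold changes were -2.12, -3.55, -2.97 and -0.86 (edgeR adjusted p = 0.00583, 0.00468, 0.0401 and 0.0341). This count fell to 0 with the males alone or without wild-type replicate 2, and to 1 or 2 without any other single library, so the values per transcript are less certain than those per gene. The share of the gene's reads did not overlap between genotypes for 7 of the 21 tested transcripts, against 8.66% of all tested transcripts of genes with several transcripts.

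**Figure D4:**
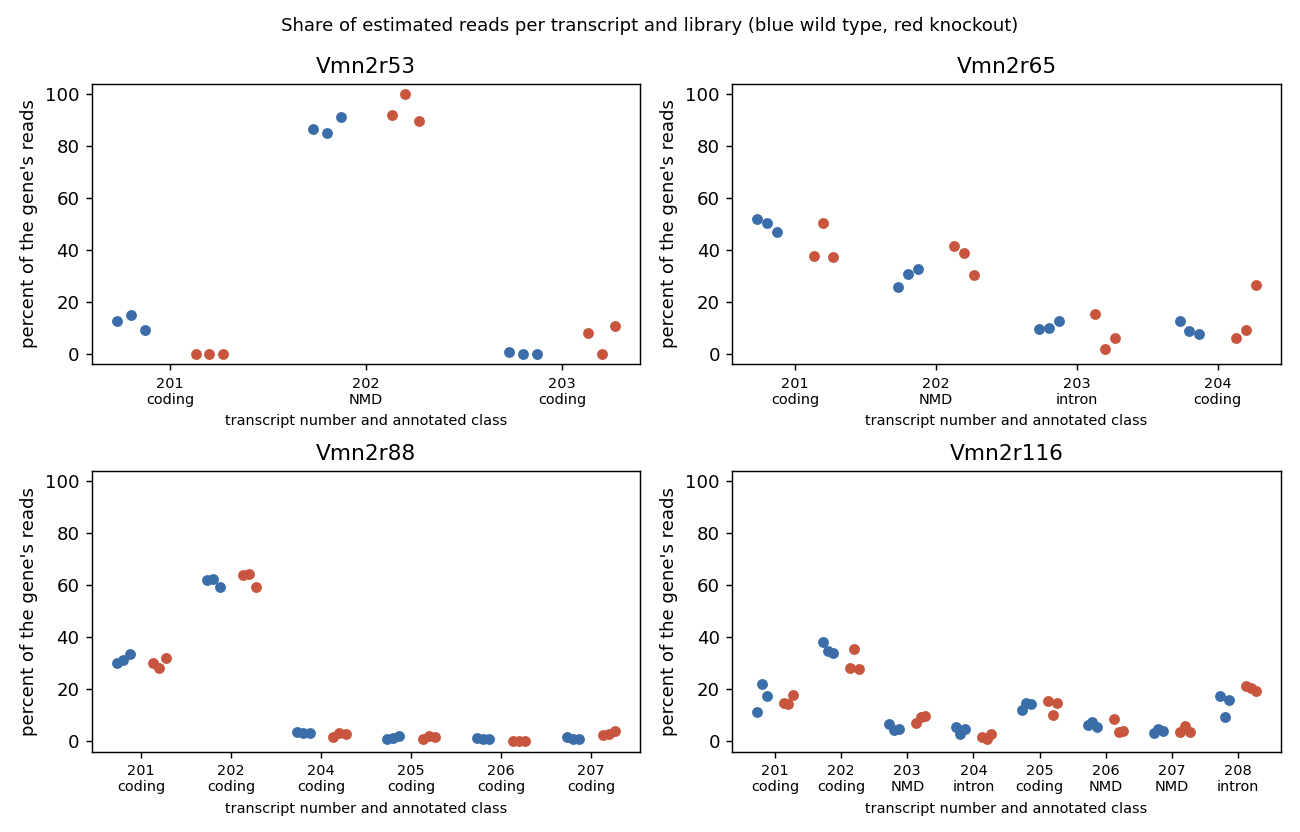
Share of each receptor's estimated reads (y axis, percent) held by each annotated transcript (x axis, transcript number with its annotated class; NMD, nonsense-mediated decay; intron, retained intron) in each library (blue wild type, red knockout). Transcripts with a mean share under 0.5% in both genotypes are left out; Vmn2r53-202 holds 87.6% and 93.8% of the reads of its gene, and Vmn2r88-202 61.4% and 62.5%.

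Most reads of Vmn2r53 fell on Vmn2r53-202, a model annotated as a target of nonsense-mediated decay (NMD), the removal of mRNAs with an early stop codon. This transcript is 22143 bases long, and its exon 3 (12600649 to 12602201) starts further upstream than the same exon of the coding models (12600649 to 12601446) and ends at the same base. It held 87.6% ± 3.05 of the gene's reads in wild type and 93.8% ± 5.53 in the knockout (SD, n = 3 each), and the groups overlapped (exact permutation p = 0.2). The coding model Vmn2r53-201, which lacks nearly all untranslated sequence and is 2421 bases long, was given 155, 200 and 135 reads in wild type and is listed at 0 in all 3 knockouts. It has no 31-mer of its own, so its reads cannot be separated from those of the longer models by sequence. It accounted for 1.45 ± 0.444 of the 2.50 TPM of the gene in wild type (SD, n = 3), and the larger fall of Vmn2r53 in TPM rests on it.

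All 4 transcripts of Vmn2r65 had lower CPM in every knockout library than in any wild-type library, an order that held for 6.33% of all transcripts tested. Vmn2r65-203 and Vmn2r65-204 were not called (edgeR adjusted p = 0.523 and 0.717). Vmn2r65-201, the full coding model, held 49.8% ± 2.48 of the reads in wild type and 41.6% ± 7.39 in the knockout (SD, n = 3 each). Transcripts annotated as NMD targets or as retaining an intron held 35.5%, 40.8% and 45.2% in wild type and 56.5%, 40.6% and 36.5% in the knockout, and the groups overlapped (exact permutation p = 0.7). A shift in the transcript makeup of this receptor was not detectable with the 128 to 278 reads per knockout library.

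Vmn2r88 has 10 quantified transcripts, all annotated as coding. Vmn2r88-202 held 61.4% ± 1.74 in wild type and 62.5% ± 2.69 in the knockout, and Vmn2r88-201 held 31.6% ± 1.67 and 30.01% ± 2.03 (SD, n = 3 each), with overlapping groups for both. The minor transcript Vmn2r88-207 had a share of 1.13% ± 0.524 in wild type and 2.99% ± 0.724 in the knockout (SD, n = 3 each) without overlap, at the smallest p the test allows (exact permutation p = 0.1). Vmn2r88-204 went the other way, with 3.24% ± 0.263 and 2.53% ± 0.741 (SD, n = 3 each), also without overlap (exact permutation p = 0.1). Vmn2r88-206 was given 116, 87.7 and 87.4 reads in wild type and is listed at 0 in all 3 knockouts. It differs from Vmn2r88-204 within the coding part by 3 bases (chr14:51417975-51417977, plus strand), shown in capitals with the surrounding coding sequence, so few reads can tell the pair apart.
Vmn2r88-206: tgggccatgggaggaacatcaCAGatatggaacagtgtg
Vmn2r88-204: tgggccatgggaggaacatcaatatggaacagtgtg

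Vmn2r116 was spread over 8 transcripts. The 5 transcripts annotated as NMD targets or as retaining an intron held 38.4%, 28.5% and 34.3% in wild type and 41.8%, 39.9% and 39.4% in the knockout. All knockout libraries lay above all wild-type libraries, with means of 33.7% ± 4.99 and 40.4% ± 1.27 (SD, n = 3 each; exact permutation p = 0.1). The difference, 6.64 percentage points, was 4.01 without wild-type replicate 2. Within this class, Vmn2r116-208 went from 14.2% to 20.3% and Vmn2r116-203 from 5.20% to 8.75%, while Vmn2r116-204 went from 4.23% to 1.66%, each without overlap at the smallest p the test allows (exact permutation p = 0.1). None of these 3 transcripts was called (edgeR adjusted p = 0.565 for Vmn2r116-204 and above it for the others). The most abundant transcript, Vmn2r116-202, lacks exon 4 of the full coding model, of 228 bases, and held 35.6% and 30.4%, with overlapping groups.

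V2R genes lie in clusters, and the nearest V2R genes on either side of each receptor were compared by position. Of these 13 neighbours, 7 (53.8%) were called lower, close to the 51.3% of all V2R genes tested. Vmn2r53 lies beside Vmn2r54 and Vmn2r55 on chromosome 7, 5051 and 42918 bases away, and both were called lower (log2 fold change -2.98 and -2.63). On its other side, the next V2R genes Vmn2r52 and Vmn2r51 are 2386278 and 2457110 bases away, and neither was called (-0.42 and 0.12). Vmn2r65 lies 21251 bases from Vmn2r66, which was not called (-0.42, edgeR adjusted p = 0.162), and 162852 bases from Vmn2r67, the next V2R gene on that side, which was called lower (-0.96). The nearest V2R genes on the other side of Vmn2r65, Vmn2r63 and Vmn2r62, are 42001743 and 42142040 bases away and were called lower (-2.40 and -2.99).

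The only V2R neighbour of Vmn2r88 on chromosome 14, Vmn2r89, was called lower with a change close in size (-0.81 against -0.89), though not with the males alone (edgeR adjusted p = 0.0543). Around Vmn2r116 the neighbours diverged. Vmn2r115, reported as the receptor of the related peptide ESP22, averaged 39.8 ± 1.66 and 13.8 ± 1.14 CPM (SD, n = 3 each) and was called lower (log2 fold change -1.52, edgeR adjusted p = 3.48e-05). Vmn2r117 was at 26.2, 24.9 and 29.4 CPM in the wild-type and 36.4, 38.9 and 43.2 CPM in the knockout libraries, and was called higher (log2 fold change 0.56, edgeR adjusted p = 0.0296), as were 5.88% of the V2R genes tested. Vmn2r114 and Vmn2r118 were not called (-0.22 and 0.28).

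**Figure D5:**
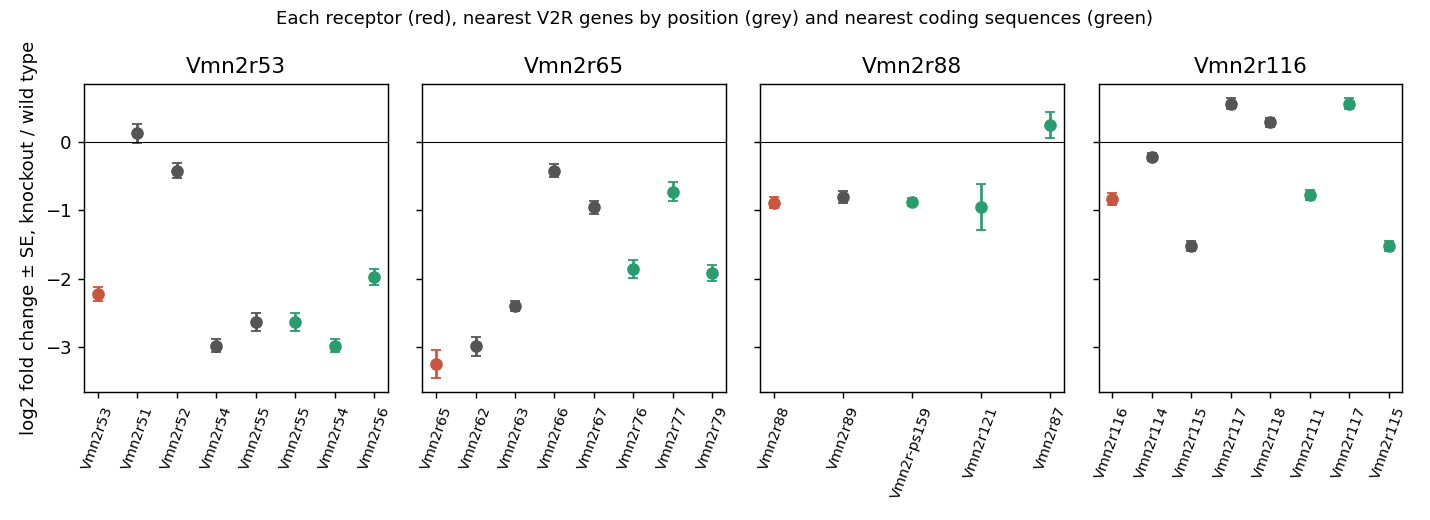
Log2 fold change ± SE (y axis, knockout over wild type) of each receptor (red), the nearest V2R genes by position (grey) and the genes of most identical coding sequence (green); a gene that is both appears in both colours. The relatives of Vmn2r53 by sequence lie between -1.98 and -2.98, and those of Vmn2r116 lie on both sides of 0, from -1.52 to 0.56.

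The genes nearest in coding sequence, chosen after values had been seen among V2R genes that aligned over at least 80% of the receptor's coding bases, overlapped in part with these neighbours. Of these 12 genes, 8 were called lower, against 51.3% of the V2R genes tested. Vmn2r-ps159, which is among the 8, does not belong to the 119 V2R genes behind that share. For Vmn2r53 they were Vmn2r55, Vmn2r54 and Vmn2r56 (92.1% identity), and all 3 were called lower, the last with a log2 fold change of -1.98. For Vmn2r65 they were Vmn2r76, Vmn2r77 and Vmn2r79 at 73.4% to 74.0% identity, with log2 fold changes of -1.85, -0.73 and -1.92, of which that of Vmn2r77 was not called (edgeR adjusted p = 0.0723). For Vmn2r88 they were Vmn2r-ps159 (-0.88, called lower), Vmn2r121 (-0.95, not called, edgeR adjusted p = 0.361) and Vmn2r87 (0.25, not called). Vmn2r89 was more identical to Vmn2r88 (94.3%) than Vmn2r87 was (89.5%), but it aligned over only 59.2% of the coding bases. Vmn2r121 varied widely within each genotype, at 128 ± 49.3 and 66.3 ± 28.1 CPM (SD, n = 3 each). For Vmn2r116 they were Vmn2r111, Vmn2r117 and Vmn2r115, with log2 fold changes of -0.78, 0.56 and -1.52.

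Because near-identical genes can exchange reads in the estimate, each receptor was also tested with its reads summed with those of every gene that holds at least 10% of its 31-mers. For Vmn2r53 and Vmn2r65 no gene reached this share. By shared 31-mers, Vmn2r53 was nearest to D10Wsu102e (4.13%, log2 fold change 0.11, not called), to Gm48082, which had too few reads to test, and to Vmn2r54 (4.09%). Vmn2r65 shared at most 0.373% with any gene, and the 3 genes sharing most were Dnajb14, Acer1 and Abcb4, none of them a receptor. Acer1 had 0 reads in all 6 libraries. Dnajb14 and Abcb4 were not called (log2 fold change -0.025 and 0.14).

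The sum was called lower for Vmn2r88 and was not called for Vmn2r116. Vmn2r88 shared 16.8% of its 31-mers with Vmn2r89, 14.4% with Vmn2r-ps159 and 12.5% with Vmn2r121, and the sum of all 4 genes had a log2 fold change of -0.87 (edgeR adjusted p = 0.00486). Vmn2r116 shared 11.6% with Vmn2r117, and the sum of this pair had a log2 fold change of -0.13 (edgeR adjusted p = 0.636). This sum adds a gene called lower to one called higher, so it is not a test of Vmn2r116 alone. Vmn2r112 (9.66% shared) and Vmn2r111 (9.07%), both called lower (-1.28 and -0.78), were just under the 10% and were not added. The rise of Vmn2r117 was itself less stable: over 18 alternatives its log2 fold change lay between 0.42 and 0.63, and the call was lost when sex was modelled, with the males alone, without scaling factors, by TPM, and when replicate 1 or 2 of the wild type, or 2 or 3 of the knockout, was left out. How much of the opposite changes of Vmn2r116 and Vmn2r117 is an exchange of reads was not tested.

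The genes that work with V2Rs in basal neurons had smaller log2 fold changes than the receptors. Of 29 listed genes, 28 passed the filter on low counts and 6 were called, all of them lower, against 0.683% of all genes tested. The list shares Vmn2r1 to Vmn2r7 with the V2R family, in which 51.3% of the genes tested were called lower. The list had a median log2 fold change of -0.26 against -0.72 over the V2R family. The receptor partners called lower were Vmn2r1 (-0.72), Vmn2r6 (-0.65), Vmn2r7 (-0.61), H2-M10.1 (-0.42) and H2-M10.3 (-0.59), that is 5 of 18. Of these, Vmn2r1 stayed called under all 18 alternatives. H2-M10.1 was not called when any 1 library was left out (edgeR adjusted p = 0.0578 to 0.186), Vmn2r7 not without wild-type replicate 1 or 2, without knockout replicate 1 or with the males alone, Vmn2r6 not without wild-type replicate 2, and H2-M10.3 not without knockout replicate 1. B2m, the light chain of H2-Mv molecules, and Calr4, a chaperone reported for V2R surface expression, were not called (-0.077 and -0.14). Of 7 tested genes of signal transduction, Gnao1 was called lower, and Trpc2, the channel of the sensory response, was not (-0.32, edgeR adjusted p = 0.197). Tfap2e, Bcl11b and Robo2, which mark basal identity, were not called (-0.26, 0.034 and -0.21). The count of 6 was 3 without wild-type replicate 1, 2 without wild-type replicate 2, 2 without knockout replicate 1, and 14 by DESeq2.

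The remaining members of these lists were not called in edgeR. Vmn2r2, Vmn2r3, Vmn2r4 and Vmn2r5 had log2 fold changes of -0.44, -0.12, -0.36 and -0.26. Among the H2-Mv genes, H2-M10.4 was at 0.44, and H2-M1, H2-M9, H2-M10.2, H2-M10.5, H2-M10.6 and H2-M11 were between -0.48 and -0.16. Gng8, Plcb2 and Ano2 had -0.32, -0.35 and -0.26, Ano1 had 0.050 and Kcnj3 had 0.30. Kcnj6 did not pass the filter.

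Genes of the reported ligands were also looked up in the organ itself. Esp1, the ligand of Vmn2r116, had 0.0333 ± 0.0190 and 0.0417 ± 0.0295 CPM in wild-type and knockout mice (SD, n = 3 each), too low to test. Smgc, the ligand reported for Vmn2r65, had 0 reads in the wild-type libraries and averaged 0.0840 ± 0.104 CPM over the knockouts (SD, n = 3). Muc19, which shares its locus with Smgc, was at 0.0689 ± 0.0462 and 0.762 ± 0.848 CPM (SD, n = 3 each) and was not called (edgeR adjusted p = 0.217), although DESeq2 called it (adjusted p = 0.00180). Knockout replicate 1 held 1.74 CPM against 0.206 and 0.342 in the others, and without it the log2 fold change was 1.97 instead of 3.42. The 4 hemoglobin genes Hba-a1, Hba-a2, Hbb-bs and Hbb-bt, which encode the ligand reported for Vmn2r88 and mark red blood cells, summed to 312 to 524 CPM in wild-type and 336 to 621 CPM in knockout libraries. Their log2 fold changes lay between 0.11 and 0.16, with overlapping groups and edgeR adjusted p-values of 0.885 to 0.924.

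For each receptor the 3 genes of most similar pattern were taken by Pearson correlation of log2 CPM over the 6 libraries, among tested genes of at least 1 CPM on average. Since all follow the genotype, these values describe the libraries and carry no test. Vmn2r53 was most similar to Vmn2r97, Vmn2r90 and Vmn2r18 (r = 0.997, 0.995 and 0.995), which are all receptors of its family and had log2 fold changes of -2.44, -1.97 and -2.09. Vmn2r65 was most similar to Cadm3, Vmn2r76 and Vmn2r112 (r = 0.998, 0.998 and 0.997). Cadm3, which encodes a cell adhesion molecule, fell by 0.34 on the log2 scale, a far smaller change than that of Vmn2r65, and its call was lost when any 1 library was left out.

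Vmn2r88 and Vmn2r116 were among each other's nearest genes (r = 0.996), although they lie on different chromosomes and share 68.0% coding identity. Both also had Gm3956, annotated as an unprocessed pseudogene (r = 0.996 and 0.998, log2 fold change -1.21), among their 3. The third gene was Gm4847 for Vmn2r88 (r = 0.996, log2 fold change -1.17, a call lost without any 1 library other than knockout replicate 3) and Fam169a for Vmn2r116 (r = 0.997, log2 fold change -0.21, not called).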

How the data were processed

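Poly(A) RNA of the VNO was sequenced from 3 wild-type and 3 Cnpy1 knockout mice, which the labels give as separate biological replicates. The authors deposited, per the file headers, an estimated count (expected reads), a TPM value and an effective length in bases for each of 117081 Ensembl transcripts. Reads were trimmed with Trim Galore 0.6.6 and quantified with Salmon 1.9.0 on mm10 (GRCm38), and DESeq2 was used, per the submitters' processing notes. Estimated counts need not be whole, since reads that fit several transcripts are divided among them.

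Transcripts were joined by identifier to GENCODE M21 (GRCm38), which matched 115942 of them. The 1139 others, with 0.304% of reads, were left out. Counts were summed per gene and rounded, a step needed because whole counts had been assumed. The main test was edgeR 4.0.16 (R 4.3.3) with its quasi-likelihood F test and TMM scaling. Genes passed filterByExpr, the model held genotype alone, and p-values were adjusted by Benjamini-Hochberg over all 16679 genes. CPM are TMM-scaled, and SE is the fold change divided by the square root of F. The common biological coefficient of variation was 12.8%. Transcripts were tested in the same way. Alternatives used limma 3.58.1, DESeq2 1.42.0, TPM with a pseudocount of 1, and each library left out. The fold changes of the count test were checked on simulated counts, which did not model reads shared between genes. Ratios between receptors and transcript shares were compared by two-sided exact permutation over mice, and their interval used Student's distribution on the pooled spread. Coding sequences were aligned in pairs.

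The receptors and gene lists were chosen with earlier results of these data known. Genes named are Cnpy1, the 4 receptors, the listed genes, the 3 genes sharing most 31-mers, the 2 nearest V2R genes on either side and the 3 most similar patterns per receptor. The nearest coding sequences were added after values were seen, and cell type markers are named where they moved.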

Additional observations from a re-analysis of the deposited data

How the results depend on the processing

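All 4 receptors stayed lower and called under the 18 alternative fits of single genes. The log2 fold change ranged from -3.28 to -1.48 for Vmn2r53, -3.50 to -2.07 for Vmn2r65, -0.96 to -0.82 for Vmn2r88 and -0.89 to -0.75 for Vmn2r116. The reads of Vmn2r116 and Vmn2r117 together, a different quantity, were not called (log2 fold change -0.13, edgeR adjusted p = 0.636). The count of all called genes was 127. It was 411 by DESeq2, 72 by limma on TPM, 76 with the males alone and 69 to 96 with 1 library left out. The V2R neuron genes called, 6, numbered 14 by DESeq2, 3 with the males alone and 2 to 5 with 1 library left out. The transcripts called, 4, numbered 2 without scaling factors, 12 by DESeq2, 1 with sex as a term, 0 with the males alone and 0 to 2 with 1 library left out. V2R genes called lower, 61, ranged from 50 to 73.

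The main fit did not pair the samples by replicate number. Deviations of same-numbered libraries correlated at 0.25, -0.07 and 0.29, and those of differently numbered ones at -0.38 to 0.19. With 3 libraries per group, these values cannot decide whether same-numbered samples belong together. With the replicate number as a block, the 4 receptors stayed called, and 0 of their transcripts were, while Muc19 was called higher. The causes of these changes were not tested.

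With 1 library left out, these values also took the opposite sign, with the ranges given: the interaction of Vmn2r53 (-0.27 to 0.016) and of Vmn2r116 (-0.014 to 0.24), each without knockout replicate 1, and the log2 fold changes of Vmn2r88-210 (-7.74 to 0.15), Vmn2r116-203 (-0.20 to 0.15), Vmn2r51 (-0.081 to 0.23), Dnajb14 (-0.053 to 0.013), Abcb4 (-0.038 to 0.31), H2-M11 (-0.34 to 0.0077), Ano1 (-0.039 to 0.16), Bcl11b (-0.041 to 0.13), Hba-a1 (-0.19 to 0.40), Hba-a2 (-0.19 to 0.39), Hbb-bs (-0.17 to 0.29) and Hbb-bt (-0.18 to 0.36). The share of NMD or intron transcripts of Vmn2r65 differed by -1.90 to 8.08 percentage points. Vmn2r51 was at -0.049 with the males alone and Bcl11b at -0.055 by TPM. None of these had been called. Other uncalled values moved by over 1.5 times without a change of sign: the interaction of Vmn2r88 (0.024 to 0.26), the difference between Vmn2r88 and Vmn2r116 (-0.078 to -0.032), the NMD share of Vmn2r53 (3.10 to 8.37 percentage points), Vmn2r3 (-0.24 to -0.049), H2-M9 (-0.49 to -0.041), Kcnj3 (0.090 to 0.55), D10Wsu102e (0.040 to 0.15) and Vmn2r121 (-1.35 to -0.62). The interaction could not be fitted without either female.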
